A study of Mus musculus with 18 samples.

Results

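The 10 genes described here build the MHC class I antigen presentation pathway, and they were read in 3 genotypes of a mouse model of small cell lung cancer. They were taken by name from the 46078 genes of the RNA-seq count table: the heavy chains H2-K1 and H2-D1, the light chain B2m, the peptide loading genes Tap1, Tap2 and Tapbp, the immunoproteasome subunits Psmb8, Psmb9 and Psmb10, and the transactivator Nlrc5. Of the 111664 peaks of the ATAC-seq count table, 30 overlapped a window from 5000 bp upstream of the start of one of these genes to its end. All 10 genes and all 30 peaks passed the filter on low counts.

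Both assays have 9 libraries, 3 per genotype, each from a separate animal within its assay. In the TKO control the tumors carried deleted Rb1, p53 and a further Rb family gene, which is Rbl1 in the labels and Rbl2 in the section on tumor induction of the methods. TKO;Carm1KO tumors (the CARM1 knockout) also lost Carm1, which encodes an arginine methyltransferase, and TKO;NfibR388K tumors (the NFIB mutant) carried, in every cell of the animal, an arginine-to-lysine change at the site of NFIB that CARM1 methylates. Adenovirus with Cre, which had no cell type restriction, was delivered into the lung airways at 8 weeks of age, and tumors were taken 28 weeks later. According to the methods, cells were sorted by FACS for a Cre-dependent tdTomato reporter, although other passages speak of biopsies and of cell lines. The mice were on a mixed C57BL/6;FVB129/N background, and class I genes differ between strains, which bears on reads mapped to a C57BL/6 genome. The comparisons ask how loss of CARM1, or of its methylation site in NFIB, changes expression and chromatin accessibility in these tumors.

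RNA-seq libraries held 15848866 to 20915057 counts on genes and ATAC-seq libraries 26917178 to 47653979 counts on peaks. RNA-seq reads that fell in no annotated gene were 9.995 to 12.2% of a library in TKO and 3.65 to 5.17% in the mutants. Counts of Carm1 over the whole gene were 44.5 to 103 CPM (counts scaled to the same library total) in TKO and 50.8 to 79.1 CPM in the CARM1 knockout, so they do not separate these groups, and a conditional allele loses only part of the gene. Rbl1 stood at 12.9 and 1.49 CPM in TKO replicates 1 and 2 and at 1.79 CPM in NFIB mutant replicate 2, against 50.6 to 67.8 CPM in the other 6 libraries. Nfib RNA was itself lower in the mutants, with 420 to 580 CPM in TKO. It held 74.5 to 216 CPM in the CARM1 knockout and 83.3 to 105 CPM in the NFIB mutant (log2 fold changes -2.06 and -2.49). Groups are named by their labels throughout.

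MHC class I molecules present peptides from inside the cell to CD8 T cells. The proteasome cuts proteins into peptides, and the immunoproteasome is a variant in which 3 catalytic subunits are exchanged for Psmb8, Psmb9 and Psmb10. Tap1 and Tap2 form the transporter that moves peptides into the endoplasmic reticulum, where tapasin (Tapbp) helps load them onto a heavy chain paired with beta-2 microglobulin (B2m). NLRC5 switches class I genes on together with RFX, CREB and NF-Y factors at their promoters, and interferons and NF-kB induce the pathway further. Neuroendocrine small cell lung cancer is known for low class I expression.

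The promoter sequences printed here are given first, because they lie in the start-site peaks described further on. Each runs 5′ to 3′ on the strand of the gene, from 250 bases before to 50 bases after the RefSeq start, and comes from RefSeq on build GRCm38.p6, in which 8 of the 10 genes had an entry. Capitals mark matches, on either strand, to the letters of 8 patterns: GAAA and GAAA 2 bases apart (ISRE, bound by interferon regulatory factors), TTC and GAA 3 bases apart (GAS, the gamma-activated site, known from genes that interferon gamma induces), GGGA followed by any base, a T, any 2 bases and CC (NF-kB), TGACG (a CRE half-site, of the kind that CREB family factors bind), CCAAT (NF-Y), TGANTCA (AP-1), TGACG followed by TCA (the full CRE), and TTGGC and GCCAA 5 bases apart (the NFI palindrome). The lines are H2-K1 at chr17:34000298-34000597 (minus strand), H2-D1 at chr17:35262844-35263143, B2m at chr2:122147437-122147736, Tap1 at chr17:34187306-34187605 and Psmb8 at chr17:34197945-34198244 (all plus strand).
H2-K1: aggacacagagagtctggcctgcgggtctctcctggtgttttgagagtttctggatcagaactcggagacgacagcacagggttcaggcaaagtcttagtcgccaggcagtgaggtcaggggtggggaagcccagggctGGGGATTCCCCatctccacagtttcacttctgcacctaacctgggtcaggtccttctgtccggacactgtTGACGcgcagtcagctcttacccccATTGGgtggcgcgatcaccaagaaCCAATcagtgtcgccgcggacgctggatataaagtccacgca
H2-D1: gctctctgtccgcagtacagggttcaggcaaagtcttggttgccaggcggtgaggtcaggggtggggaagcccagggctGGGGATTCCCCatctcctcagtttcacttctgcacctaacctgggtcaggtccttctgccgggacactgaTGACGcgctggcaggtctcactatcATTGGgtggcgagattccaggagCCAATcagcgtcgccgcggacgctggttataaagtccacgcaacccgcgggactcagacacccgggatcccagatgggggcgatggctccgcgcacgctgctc
B2m: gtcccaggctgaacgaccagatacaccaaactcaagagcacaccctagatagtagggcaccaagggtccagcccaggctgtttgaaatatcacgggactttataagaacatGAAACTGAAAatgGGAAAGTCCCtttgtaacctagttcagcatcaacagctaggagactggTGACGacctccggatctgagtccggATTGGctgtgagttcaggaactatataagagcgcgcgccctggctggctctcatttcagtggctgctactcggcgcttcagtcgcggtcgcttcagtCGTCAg
Tap1: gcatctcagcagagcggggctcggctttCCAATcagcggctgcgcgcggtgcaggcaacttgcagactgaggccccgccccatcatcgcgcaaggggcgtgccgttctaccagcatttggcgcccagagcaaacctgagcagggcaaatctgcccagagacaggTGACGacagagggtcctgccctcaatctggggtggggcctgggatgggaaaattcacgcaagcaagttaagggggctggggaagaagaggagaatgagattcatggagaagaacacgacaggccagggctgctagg
Psmb8: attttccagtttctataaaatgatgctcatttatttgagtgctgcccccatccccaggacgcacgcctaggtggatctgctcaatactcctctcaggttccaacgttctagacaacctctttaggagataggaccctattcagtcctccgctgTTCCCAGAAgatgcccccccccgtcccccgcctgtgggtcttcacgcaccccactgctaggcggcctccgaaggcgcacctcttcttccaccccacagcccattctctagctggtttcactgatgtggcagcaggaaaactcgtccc

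In H2-K1 and H2-D1 an NF-kB match, a CRE half-site and a CCAAT box followed each other in that order. The 100 bases from the NF-kB match to the CCAAT box were identical at 89 positions between the 2 heavy chain promoters. The B2m promoter held the same order, with an ISRE match just before the NF-kB match. NF-kB letters stood in 3 of the 8 promoters (H2-K1, H2-D1 and B2m), against 4.16% of 32817 promoter windows in the whole table. ISRE letters stood in 1 of 8 (B2m, against 3.43%) and GAS letters in 1 of 8 (Psmb8, against 8.29%). CRE half-sites stood in 5 of 8 (against 20.8%) and CCAAT in 6 of 8 (against 37.4%). The full CRE (1.79% of all windows), the NFI palindrome (0.0366%) and AP-1 letters (7.81%) had no match in the 8 windows. The windows of Tap1 and Psmb9, which are transcribed away from each other, share 275 bases. The CRE half-site includes the first letters of the full CRE, and a match is only a run of letters.

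RNA of all 10 genes was higher in both mutants than in TKO. In the CARM1 knockout the 10 genes rose 4.60- to 17.6-fold, and in the NFIB mutant 6.38- to 30.04-fold. Psmb8, an immunoproteasome subunit, rose most, and B2m, the light chain common to all class I molecules, came second. A gene was called where edgeR's quasi-likelihood test gave a Benjamini-Hochberg adjusted p below 0.1 over all 15514 genes tested and the change was 0.8 or more on the log2 scale. By this rule 20.5% of all genes tested were called higher in the CARM1 knockout and 22.3% in the NFIB mutant (38.8 and 45.8% in either direction), against 10 of the 10 pathway genes in each, and 17.9% were called higher in both. Every CARM1 knockout library stood above every TKO library for 8 of the 10 genes, against 27.3% of all genes tested, and every NFIB mutant library for 10 of 10, against 27.2%. The members' median log2 fold change was 2.76 in the CARM1 knockout and 3.71 in the NFIB mutant, and over all genes tested it was -0.03 and -0.05. Both comparisons use the same 3 TKO libraries, so they are not independent of each other.

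How many calls the CARM1 knockout comparison gave depended on single libraries. Without TKO replicate 2, or without CARM1 knockout replicate 1, 6 of the 10 were called, and H2-K1, Tap2, Psmb9 and Nlrc5 were not. Without TKO replicate 1, Psmb9 and Nlrc5 were not called, and without CARM1 knockout replicate 3, Psmb9 was not. In the NFIB mutant all 10 were called whichever library was left out. When the 3 libraries with over 10 CPM of the leukocyte gene Ptprc were left out together, a choice made after seeing the data, 9 of 10 stayed called in the NFIB mutant (Nlrc5 had an adjusted p of 0.102 in edgeR) and 0 of 10 in the CARM1 knockout. That fit rests on CARM1 knockout replicate 2 alone, which is assumed to vary like the other groups, and its log2 fold changes ran from 0.28 for Psmb9 to 2.51 for Tapbp.

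**Figure D1:**
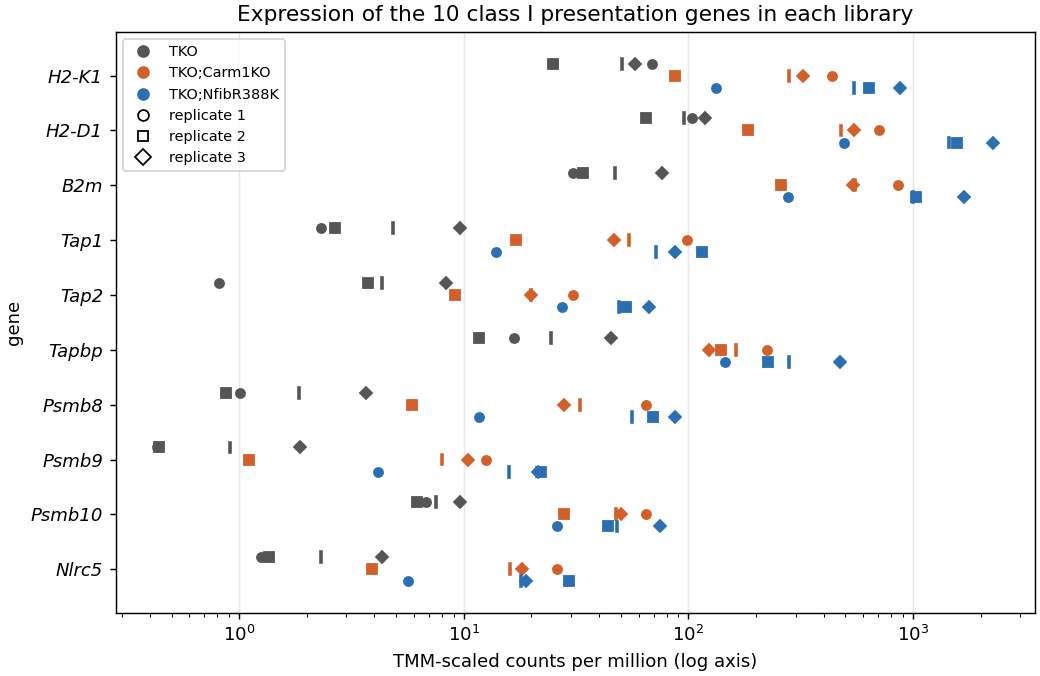
TMM-scaled CPM (log axis) of each of the 10 genes (rows) in the 9 RNA-seq libraries, with colors for genotype, symbols for replicate number and a vertical bar for the mean of each genotype. All 3 NFIB mutant libraries lie above all 3 TKO libraries in every row, while CARM1 knockout replicate 2 lies within the TKO range for Psmb9 and Nlrc5.

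H2-K1 (ENSMUSG00000061232, chr17:33996017-34000347, build GRCm38) encodes the classical heavy chain K. Its level was 68.8, 24.8 and 58.1 CPM in TKO replicates 1 to 3, and 436, 86.8 and 323 CPM in the CARM1 knockout. In the NFIB mutant it was 132, 635 and 880 CPM. No mutant library fell within the TKO range. The log2 fold change was 2.48 (SE 0.82, edgeR adjusted p = 0.0482) in the CARM1 knockout and 3.44 (SE 0.85, edgeR adjusted p = 0.0151) in the NFIB mutant.

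H2-D1 (ENSMUSG00000073411, chr17:35262730-35267499) encodes the second classical heavy chain, D. TKO held 104, 64.6 and 119 CPM and the CARM1 knockout 705, 185 and 545 CPM. The NFIB mutant held 492, 1565 and 2268 CPM. The groups did not overlap with TKO. The rise was 4.99-fold (log2 2.32, SE 0.66, edgeR adjusted p = 0.0291) in the CARM1 knockout and 15.05-fold (log2 3.91, SE 0.70, edgeR adjusted p = 0.00458) in the NFIB mutant.

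B2m (ENSMUSG00000060802, chr2:122147686-122153083) had the highest level per length in each genotype. TKO libraries held 30.7, 33.9 and 76.3 CPM, CARM1 knockout libraries 861, 258 and 538 CPM, and NFIB mutant libraries 277, 1035 and 1694 CPM. Even the lowest mutant library stood above the highest TKO library. B2m rose 11.8-fold (log2 3.56, SE 0.77, edgeR adjusted p = 0.0113) in the CARM1 knockout and 21.3-fold (log2 4.42, SE 0.80, edgeR adjusted p = 0.00477) in the NFIB mutant. The annotated Patl2 gene overlaps B2m on the other strand, and how the counting treated strand is not given in the sources used here.

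The transporter and loading genes stood below the heavy and light chains per kb of exon. Tap1 (ENSMUSG00000037321, chr17:34187553-34197225) held 2.31, 2.67 and 9.57 CPM in TKO. It held 98.8, 17.1 and 46.9 CPM in the CARM1 knockout and 13.9, 115 and 87.6 CPM in the NFIB mutant. Its log2 fold changes were 3.48 (SE 1.01, edgeR adjusted p = 0.0311) and 3.89 (SE 1.02, edgeR adjusted p = 0.0189).

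Tap2 (ENSMUSG00000024339, chr17:34203527-34216321), the partner subunit of Tap1, held 0.817, 3.76 and 8.38 CPM in TKO. CARM1 knockout libraries held 30.5, 9.16 and 20.0 CPM and NFIB mutant libraries 27.5, 52.6 and 67.1 CPM. TKO replicate 3 and CARM1 knockout replicate 2 thus nearly met. Tap2 had the smallest rise of the 10 in the CARM1 knockout (log2 2.20, SE 0.81, edgeR adjusted p = 0.0663), and rose 11.3-fold in the NFIB mutant (log2 3.50, SE 0.85, edgeR adjusted p = 0.0139).

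Tapbp (ENSMUSG00000024308, chr17:33915899-33929292) encodes tapasin, which holds the empty class I molecule at the transporter. Its levels were 16.7, 11.7 and 45.1 CPM in TKO, 224, 139 and 124 CPM in the CARM1 knockout, and 146, 226 and 473 CPM in the NFIB mutant. The mutant libraries all stood above TKO replicate 3, the highest control. The log2 fold changes were 2.73 (SE 0.63, edgeR adjusted p = 0.0146) and 3.52 (SE 0.65, edgeR adjusted p = 0.00516).

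Among the immunoproteasome subunits, Psmb8 (ENSMUSG00000024338, chr17:34197721-34201454) held 1.01, 0.875 and 3.68 CPM in TKO. It held 64.8, 5.89 and 27.8 CPM in the CARM1 knockout and 11.7, 69.2 and 86.8 CPM in the NFIB mutant. The rises of 17.6-fold (log2 4.14, SE 1.13, edgeR adjusted p = 0.0257) and 30.04-fold (log2 4.91, SE 1.17, edgeR adjusted p = 0.0131) were the largest of the 10 genes, and so were their SE.

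Psmb9 (ENSMUSG00000096727, chr17:34181987-34187764) was the lowest of the immunoproteasome genes per kb of exon. It held 0.432, 0.437 and 1.86 CPM in TKO, 12.5, 1.11 and 10.4 CPM in the CARM1 knockout, and 4.13, 22.01 and 21.4 CPM in the NFIB mutant. CARM1 knockout replicate 2 lay within the TKO range. The log2 fold changes were 3.13 (SE 1.10, edgeR adjusted p = 0.0580) and 4.11 (SE 1.14, edgeR adjusted p = 0.0230).

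Psmb10 (ENSMUSG00000031897, chr8:105935735-105938444) had the smallest SE of the 10 genes. It held 6.77, 6.17 and 9.66 CPM in TKO, 64.9, 27.9 and 49.9 CPM in the CARM1 knockout, and 26.0, 43.6 and 74.7 CPM in the NFIB mutant. It rose by nearly the same amount in both mutants, 6.31-fold (log2 2.66, SE 0.47, edgeR adjusted p = 0.00531) and 6.38-fold (log2 2.67, SE 0.47, edgeR adjusted p = 0.00409).

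Nlrc5 (ENSMUSG00000074151, chr8:94434356-94527272), which encodes the class I transactivator, held 1.25, 1.36 and 4.34 CPM in TKO. It held 26.0, 3.91 and 18.1 CPM in the CARM1 knockout and 5.65, 29.3 and 18.9 CPM in the NFIB mutant. CARM1 knockout replicate 2 again lay within the TKO range, and NFIB mutant replicate 1 just above it. The log2 fold changes were 2.78 (SE 0.91, edgeR adjusted p = 0.0465) and 2.95 (SE 0.91, edgeR adjusted p = 0.0336).

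The 10 genes ranked the libraries alike. CARM1 knockout replicate 1 was the highest of its genotype for 10 of 10 genes, and CARM1 knockout replicate 2 the lowest for 9 of 10. NFIB mutant replicate 1 was the lowest of its genotype for 10 of 10. Among the controls, TKO replicate 3 was the highest for 9 of 10, all but H2-K1. Genes of a library share its cells and its depth, so this counts libraries, not independent observations.

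In CPM per kb of exon, the scale on which genes can be set side by side, B2m led in TKO (mean 54.6, SD 29.6, n = 3), followed by H2-D1 (37.1, SD 10.9) and H2-K1 (17.2, SD 7.80). Tapbp, Psmb10, Tap2, Tap1, Psmb8 and Nlrc5 followed, and Psmb9 was last at 0.249 CPM per kb (SD 0.225). The first 5 places were the same in the mutants. There B2m stood at 642 CPM per kb (SD 351) in the CARM1 knockout and 1165 CPM per kb (SD 825) in the NFIB mutant, and Nlrc5 was last at 1.88 (SD 1.32) and 2.12 CPM per kb (SD 1.40). Of the 9 neighbouring pairs in the order, those whose mean ± SD did not overlap were H2-D1 over H2-K1 and Psmb10 over Tap2 in TKO, B2m over H2-D1 in the CARM1 knockout, and Tap2 over Psmb9 in the NFIB mutant.

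Between the mutants, 0 of the 10 genes were called, as were 0.00% of all genes tested in either direction. All 10 estimates were lower in the CARM1 knockout than in the NFIB mutant. H2-D1 differed most, by -1.59 on the log2 scale (SE 0.64, edgeR adjusted p = 0.532), and was the 1 member with an unadjusted p under 0.05. DESeq2 also called 0 of the 10. The SE of the 10 differences ran from 0.44 to 1.01, and the interval of 2 SE to either side ran from -2.87 to -0.31 for H2-D1 and held 0 for the other 9 genes. In data simulated for the comparison of the CARM1 knockout with TKO, 4% of changes of 1 on the log2 scale, 40.4% of changes of 2 and 63.3% of changes of 3 were called among 15094 genes. Far fewer genes were changed there than were called in the real data of that comparison. This makes the adjusted p stricter, so these shares may be too low for it. The comparison between the mutants was not simulated, so these shares do not say how many differences between the mutants would be called. The order was not stable, since the estimates for Psmb10, Tap1 and Nlrc5 changed sign when 1 library was left out.

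The change from constitutive to immunoproteasome subunits was read within each library as the ratio of reads per kb of exon. Psmb8 reached 0.464, 0.427 and 2.53% of Psmb5, the subunit it replaces, in TKO. It reached 20.9, 1.63 and 9.99% in the CARM1 knockout and 4.03, 18.9 and 23.5% in the NFIB mutant. Psmb9 stood at 0.206, 0.219 and 0.995% of Psmb6 in TKO, at 3.45, 0.292 and 3.29% in the CARM1 knockout and at 1.34, 7.27 and 4.36% in the NFIB mutant. Psmb10 stood at 8.57, 8.58 and 18.4% of Psmb7 in TKO, at 61.7, 25.2 and 57.4% in the CARM1 knockout and at 30.1, 46.8 and 66.2% in the NFIB mutant. In the NFIB mutant all 3 ratios lay above every TKO library, and in the CARM1 knockout this held for Psmb10 to Psmb7, while replicate 2 overlapped with TKO for the other ratios.

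**Figure D2:**
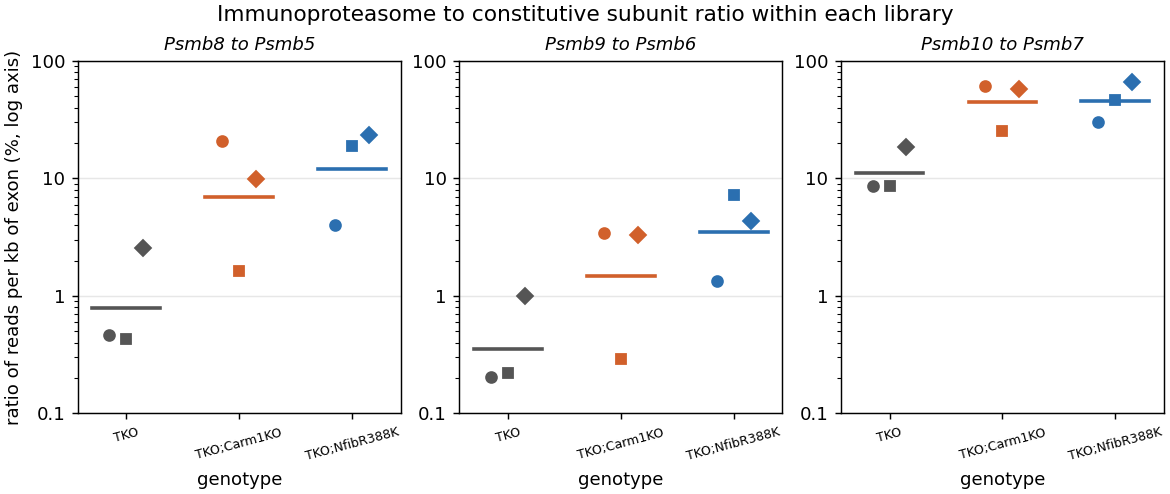
Reads per kb of exon of Psmb8, Psmb9 and Psmb10 as a percent (log axis) of those of Psmb5, Psmb6 and Psmb7 in each RNA-seq library, by genotype, with the replicate number as the symbol (1 circle, 2 square, 3 diamond) and a bar for the geometric mean. TKO libraries lie at 0.206 to 18.4% and mutant libraries at 0.292 to 66.2%, with the NFIB mutant above TKO in each panel.

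On the log2 scale the ratio of Psmb8 to Psmb5 was higher by 3.14 in the CARM1 knockout and by 3.93 in the NFIB mutant. For Psmb9 to Psmb6 the differences were 2.07 and 3.30, and for Psmb10 to Psmb7 they were 2.01 and 2.04. A two-sided exact permutation test gave p = 0.1 for the NFIB mutant in each of the 3 ratios, the smallest value that 3 against 3 libraries allow, and p = 0.1 for Psmb10 in the CARM1 knockout (adjusted exact p = 0.225 over the 9 tests). It gave p = 0.2 for Psmb8 and Psmb9 in the CARM1 knockout (adjusted exact p = 0.3). The design could not reach an adjusted p under 0.1 in these tests. The constitutive subunits also had estimates above 0, but smaller ones than the immunoproteasome subunits. In the CARM1 knockout and the NFIB mutant, Psmb5 had log2 fold changes of 0.74 and 0.85. Those of Psmb6 were 0.83 and 0.88, and those of Psmb7 0.57 and 0.52. Of these, Psmb6 was called higher in both mutants and Psmb5 in the NFIB mutant.

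Among all genes tested, 20.5% were called higher and 18.3% lower in the CARM1 knockout, and 22.3 and 23.5% in the NFIB mutant, which is the background for each of the list counts that follow. Of 16 genes for other core subunits and activators, 1 was called higher in the CARM1 knockout and 4 in the NFIB mutant, and 0 lower. Psme2, a subunit of the PA28 activator that interferon gamma induces, was the gene called in both, with 47.5, 35.1 and 34.4 CPM in TKO, 105, 53.1 and 83.5 CPM in the CARM1 knockout and 85.7, 129 and 150.9 CPM in the NFIB mutant. Its log2 fold changes were 1.05 (SE 0.31, edgeR adjusted p = 0.0318) and 1.64 (SE 0.31, edgeR adjusted p = 0.00529). The share called higher in the NFIB mutant was near the background. The median log2 fold change of the 16 genes was 0.38 in the CARM1 knockout and 0.43 in the NFIB mutant.

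Of 20 further class I heavy chain genes listed, 19 were in the count table and 16 were tested. In the CARM1 knockout 9 were called higher and 2 lower, and in the NFIB mutant 10 higher and 1 lower. H2-T10, a nonclassical chain, held 1.06, 0.875 and 1.95 CPM in TKO, 129, 25.2 and 45.1 CPM in the CARM1 knockout and 23.5, 87.7 and 62.6 CPM in the NFIB mutant, with log2 fold changes of 5.67 and 5.48 (edgeR adjusted p = 0.00283 and 0.00234). In the NFIB mutant H2-Q1 stood at 1.34, 4.93 and 6.04 CPM, against 0 counts in each of the 3 TKO libraries, which is at least 28.5-fold higher than 3 counts in a TKO library. In the CARM1 knockout H2-Q1 was at or under that floor on average (1, 0 and 6 counts) and overlapped with TKO. It is nevertheless 1 of the 9 genes called higher there. Cd1d1, which presents lipids rather than peptides, was the gene called lower in both, from 17.7, 16.4 and 21.9 CPM in TKO to 2.22 to 7.93 CPM in the mutants. The reads of these near-identical genes may be split between copies and between strain alleles, so single values are uncertain.

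Some nonclassical genes did not follow the pattern in every library. H2-T22 and H2-T23, chosen after their values were seen, stood at 5.17 and 1.58 CPM in NFIB mutant replicate 1. The other mutant libraries held 117 to 447 CPM of H2-T22 and 41.3 to 120 CPM of H2-T23, and TKO libraries 19.2 to 24.4 CPM and 10.6 to 17.8 CPM. H2-K2, chosen in the same way, was called lower in the CARM1 knockout (log2 -2.53, edgeR adjusted p = 0.0247) and had a log2 fold change of 0.56 in the NFIB mutant (edgeR adjusted p = 0.497), but the difference between the mutants was not called (edgeR adjusted p = 0.474).

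Of 9 genes for chaperones and trimming enzymes of the loading pathway, 7 were called higher in the CARM1 knockout and 8 in the NFIB mutant, and 0 lower. Erap1, which trims peptides in the endoplasmic reticulum, held 8.74, 10.9 and 12.98 CPM in TKO, 64.5, 31.5 and 57.6 CPM in the CARM1 knockout and 32.6, 56.5 and 89.1 CPM in the NFIB mutant (log2 fold changes 2.23 and 2.45, edgeR adjusted p = 0.00679 and 0.00387). Calr, which encodes the chaperone calreticulin, held 279, 541 and 416 CPM in TKO and 1477 to 2399 CPM in the mutants (log2 fold changes 2.26 and 2.36). No mutant library of either gene overlapped with TKO.

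Of 19 transcription factors known to act on class I genes, 7 were called higher and 2 lower in the CARM1 knockout, and 9 higher and 2 lower in the NFIB mutant. In either direction 38.8 and 45.8% of all genes tested were called. Nfkb2 and Relb, partners in the noncanonical NF-kB pathway, rose most. Nfkb2 held 8.74, 5.25 and 2.44 CPM in TKO, 134, 132 and 101 CPM in the CARM1 knockout and 140, 249 and 227 CPM in the NFIB mutant, with log2 fold changes of 4.48 (SE 0.49) and 5.23 (SE 0.51). Relb held 3.27 to 7.84 CPM in TKO and 30.1 to 59.1 CPM in the mutants. Creb1, which encodes a factor of the class I promoter complex, fell from 124, 133 and 80.4 CPM in TKO to 35.3 to 58.8 CPM in the mutants (log2 -1.07 and -1.40). In CARM1 knockout replicate 2, the lowest library of its genotype for 9 of the 10 pathway genes, Nfkb2 stood at 132 CPM and Relb at 30.1 CPM. This library was singled out after its values were seen. The part of these factors in the class I levels was not tested.

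Of 10 interferon receptor and signaling genes, 8 were called higher and 0 lower in each mutant. Ifnar2 rose by 2.91 and 3.12 and Ifngr2 by 2.36 and 2.41 on the log2 scale, and both encode receptor chains, for type I interferons and for interferon gamma. Ifngr2 held 17.6 to 24.1 CPM in TKO and 89.5 to 140 CPM in the mutants. Of 8 genes for PRC2 and other silencing factors, 3 were called lower and 0 higher in each mutant. Ezh2, the catalytic subunit of PRC2, held 190, 232 and 114 CPM in TKO and 45.7 to 66.0 CPM in the mutants (log2 -1.57 and -1.74). Kdm1a, a histone demethylase, held 173 to 212 CPM in TKO and 71.1 to 130 CPM in the mutants (log2 -0.96 and -1.26). Over all 8 lists of pathway genes, 37 of 87 genes tested were called higher and 7 lower in the CARM1 knockout, and 44 and 6 in the NFIB mutant, beside the 20.5 and 18.3% and the 22.3 and 23.5% of all genes given above.

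Of 7 genes for immune ligands and checkpoints, 6 were tested, and 4 were called higher in the CARM1 knockout and 3 in the NFIB mutant. Raet1e, a ligand of the NKG2D receptor of natural killer and T cells, held 0.240, 0.350 and 0 CPM in TKO, 18.4, 20.1 and 9.89 CPM in the CARM1 knockout and 15.6, 58.2 and 35.6 CPM in the NFIB mutant (log2 6.31 and 7.49). Cd80, a costimulatory ligand, was at or under 3 counts in every TKO library. It held 2.17 to 3.32 CPM in the CARM1 knockout, at least 19.1-fold higher than that floor, and 0.730, 4.38 and 0.0635 CPM in the NFIB mutant, where replicate 3 overlapped with TKO. Cd274, which encodes PD-L1 and was also chosen after its values were seen, was not called in either mutant (edgeR adjusted p = 0.265 and 0.721).

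**Figure D3:**
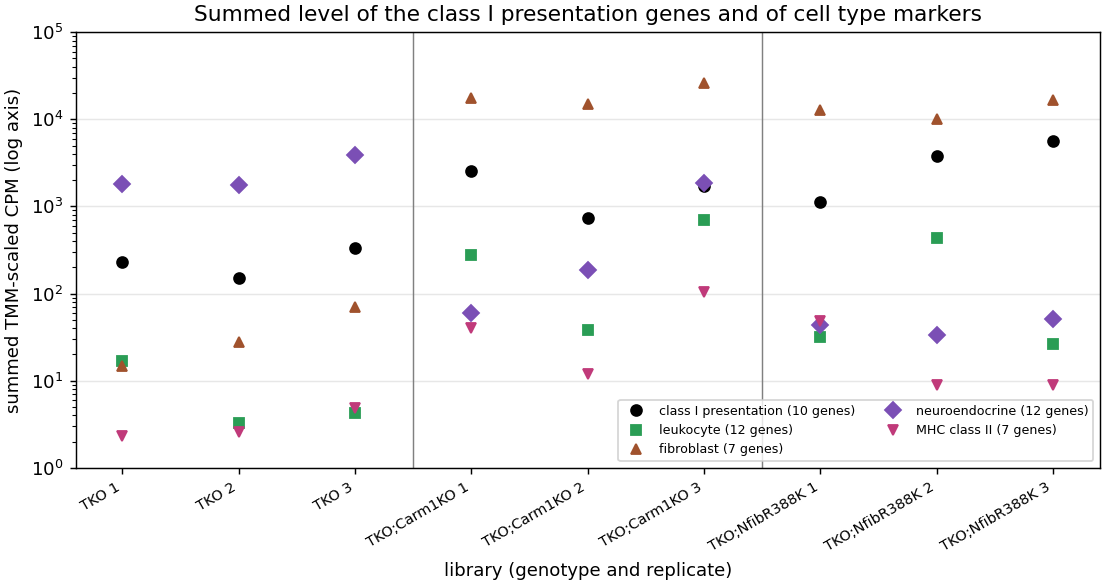
Summed TMM-scaled CPM (log axis) of the 10 class I presentation genes and of 4 marker lists in each of the 9 RNA-seq libraries, with lines between the genotypes. NFIB mutant replicate 3 has the highest class I sum (5671 CPM) with a leukocyte sum of 26.1 CPM, while the fibroblast sum is at least 10007 CPM in every mutant library.

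Markers of some other cell types moved with genotype, and the class I genes are expressed by most nucleated cells. The summed level of the 10 genes was 233, 150 and 336 CPM in TKO, 2524, 735 and 1703 CPM in the CARM1 knockout and 1136, 3793 and 5671 CPM in the NFIB mutant. The 12 leukocyte markers summed to 16.9, 3.24 and 4.21 CPM in TKO, 276, 38.5 and 704 CPM in the CARM1 knockout and 31.4, 430 and 26.1 CPM in the NFIB mutant. In the CARM1 knockout, replicate 2, the library with the lowest class I sum, also had the lowest leukocyte sum. NFIB mutant replicate 3, with the highest class I sum of the 9 libraries, held 0.191 CPM of Ptprc, 0.826 CPM of Itgam and 0.191 CPM of Adgre1, each within the TKO range. In the same library the macrophage genes Csf1r (11.1 CPM) and Cd68 (13.5 CPM) stood above every TKO library (0.0437 to 2.55 CPM and 2.44 to 7.45 CPM), as did the leukocyte sum. Cd3e was at 0 in every library and Nkg7 was at or under 0.122 CPM, so these T and natural killer cell markers were at or near 0. MHC class II genes, which antigen presenting cells express, summed to 2.31 to 4.87 CPM in TKO, 12.1 to 104 CPM in the CARM1 knockout and 8.83 to 48.1 CPM in the NFIB mutant. The members of this list did not move alike in the NFIB mutant. H2-Aa, H2-Ab1 and H2-Eb1 had 0 or 1 counts in each library, as in TKO. Ciita stood below TKO (0.0616 to 0.547 against 0.886 to 1.06 CPM). H2-DMa and H2-DMb1 stood above every TKO library, and Cd74 held 41.8, 2.47 and 0.699 CPM, against 0.144 to 2.17 CPM in TKO.

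The 12 neuroendocrine markers, which should define these tumors, summed to 1766 to 3922 CPM in TKO, but to 33.5 to 51.2 CPM in the NFIB mutant and to 59.3, 188 and 1865 CPM in the CARM1 knockout. The 7 fibroblast markers summed to 14.9 to 70.3 CPM in TKO and 10007 to 26082 CPM in the mutants. Lung epithelium and endothelium markers followed no such split. The 10 lung epithelium markers summed to 635, 402 and 283 CPM in TKO. They summed to 3.59, 57.6 and 880 CPM in the CARM1 knockout and to 2806, 211 and 3.49 CPM in the NFIB mutant. The 6 endothelium markers summed to 5.86 to 21.3 CPM in TKO, 4.02 to 73.9 CPM in the CARM1 knockout and 1.82 to 12.2 CPM in the NFIB mutant. CARM1 knockout replicate 3 stood within the TKO range of the neuroendocrine sum. Its fibroblast sum (26082 CPM) and leukocyte sum (704 CPM) were the highest of the 9 libraries. The label of small cell lung cancer cells thus met its markers in TKO, only in part in that library, and not in the other 5 mutant libraries. The part of cell makeup in the class I differences was not tested, and in bulk libraries more cells of a type and more RNA per cell cannot be told apart.

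Outside all lists, the 5 genes whose profile over the 9 libraries was closest to the mean profile of the 10 were Uba7, Pear1, Tmem106a, Gbp7 and Hspb2. Closeness was the mean absolute distance of centred log2(CPM + 1) values, searched over 14109 genes with a mean of at least 1 CPM. Uba7, the activating enzyme for ISG15, was closest at 0.212, nearer than any of the 10 genes was to its own mean (0.311 to 0.443). It held 0.577, 0.525 and 3.54 CPM in TKO, 28.1, 5.54 and 15.5 CPM in the CARM1 knockout and 11.1, 47.8 and 49.3 CPM in the NFIB mutant. Gbp7 belongs to the interferon-induced guanylate binding proteins. This closeness is a description over 9 libraries.

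Peaks over the starts of the 10 genes were present in TKO, and with TMM scaling they changed by -0.43 to 1.21 on the log2 scale. In the 3 TKO libraries the peak over the H2-D1 start held 51.0, 50.2 and 50.3 CPM, a mean higher than that of 83.0% of 12288 peaks over protein-coding starts, and the H2-K1 peak 47.0, 43.4 and 52.1 CPM (80.7%). The peak shared by Tap1 and Psmb9 held 22.1, 28.1 and 35.6 CPM (54.8%), while RNA of these genes in TKO was higher per length than that of only 22.5 and 11.04% of 15460 genes. The peaks of Psmb8, Tap2 and Nlrc5 were among the weaker ones, with means above 21.7, 16.2 and 15.4% of start-site peaks.

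For peaks the same test was used, with a change of 0.5 or more on the log2 scale required beside an adjusted p below 0.1. Over the 9 peaks that cover a start of the 10 genes, 2 were called higher in the CARM1 knockout and 5 in the NFIB mutant, and 0 lower. Among all 12286 tested peaks over protein-coding starts, 1351 and 1365 were called higher and 4580 and 5323 lower. These shares are smaller for higher calls than the 38.7 and 39.3% of all peaks. The choice of scaling matters here, because over all peaks tested the median log2 fold change was 0.22 in both mutants with TMM scaling, 0.59 and 0.68 with scaling to start sites of genes with a small expression change, and 0.79 and 0.79 with library totals. With scaling to such start sites, which is closest to the normalization named in the methods, 7 of the 9 were called higher in each mutant, against 17.6 and 18.9% of all protein-coding start-site peaks. With library totals 7 of 9 were called higher in each, against 25.2 and 23.3%. With the size factors of DESeq2 in edgeR 1 and 4 were called higher, against 9.54 and 9.78%, and 1 was called lower in the NFIB mutant. Changes below are given with TMM scaling.

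**Figure D4:**
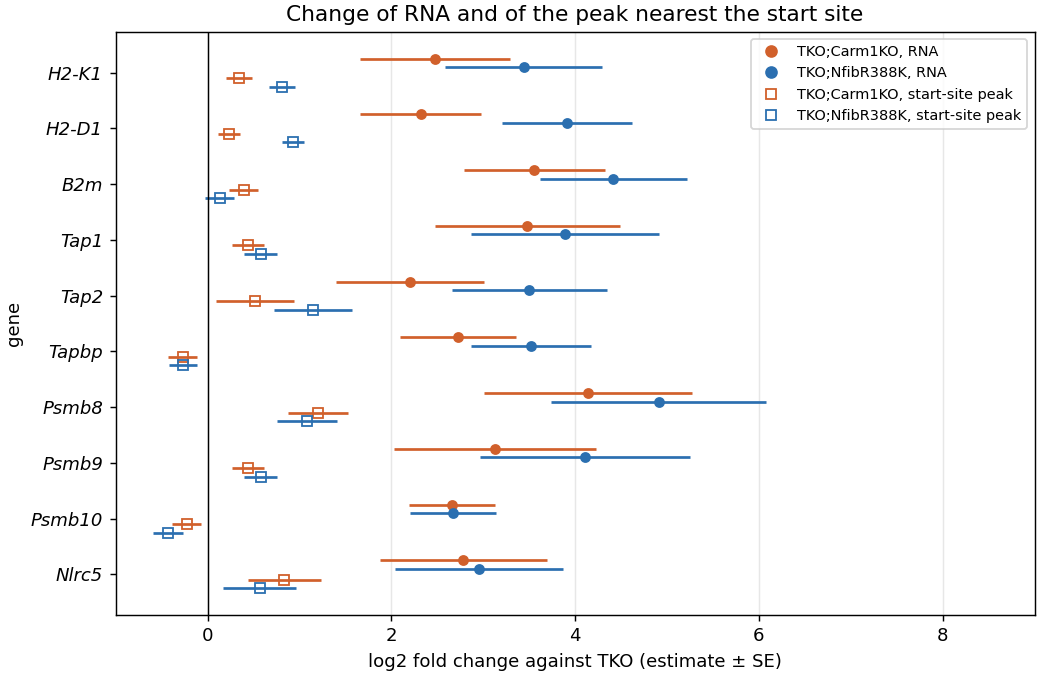
Log2 fold change against TKO (estimate ± SE) of the RNA (filled circles) and of the ATAC-seq peak nearest the start (open squares) of each gene, in the CARM1 knockout (orange) and the NFIB mutant (blue). The RNA estimates lie between 2.20 and 4.91 and the peak estimates between -0.43 and 1.21, the latter with TMM scaling, under which Tapbp and Psmb10 lie below 0, while they lie above 0 with library totals.

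The H2-D1 start peak (chr17:35262284-35265031) held 65.9, 53.3 and 59.3 CPM in the CARM1 knockout and 94.8, 92.9 and 100 CPM in the NFIB mutant. Its log2 fold change was 0.24 (SE 0.12, edgeR adjusted p = 0.0970) in the CARM1 knockout, under the size required, and 0.93 (SE 0.12, edgeR adjusted p = 1.40e-04) in the NFIB mutant. The H2-K1 start peak (chr17:33998676-34001440) held 71.2, 51.2 and 58.5 CPM in the CARM1 knockout, which overlapped with TKO, and 81.9, 84.2 and 84.3 CPM in the NFIB mutant. Its log2 fold changes were 0.34 (SE 0.14, edgeR adjusted p = 0.0529) and 0.81 (SE 0.14, edgeR adjusted p = 7.82e-04). These are the promoters with the shared order of NF-kB, CRE half-site and CCAAT letters printed above. The difference between the mutants was not called by edgeR at either peak (adjusted p = 0.224 for H2-D1 and 0.673 for H2-K1). DESeq2 called 1 of the 30 peaks lower in the CARM1 knockout than in the NFIB mutant, the H2-D1 start peak.

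The B2m start peak (chr2:122146515-122149273) held 25.3, 21.1 and 22.9 CPM in TKO, 32.3, 28.9 and 29.7 CPM in the CARM1 knockout and 24.1, 27.9 and 24.1 CPM in the NFIB mutant. It was not called in either mutant (log2 0.39 and 0.13), although B2m RNA rose 11.8- and 21.3-fold. Under alternatives that include library totals and start-site scaling the B2m start peak was called higher. The estimates there were 0.55 to 0.96 in the CARM1 knockout and 0.58 to 0.70 in the NFIB mutant. The shared Tap1 and Psmb9 peak (chr17:34186545-34188727) held 38.2 to 39.2 CPM in the CARM1 knockout and 38.3 to 44.8 CPM in the NFIB mutant, above all TKO libraries. It was called higher in the NFIB mutant (log2 0.58, SE 0.18, edgeR adjusted p = 0.0145) and not in the CARM1 knockout (log2 0.44, SE 0.18).

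The Psmb8 start peak (chr17:34196745-34199412) was the start-site peak called higher in both mutants. It held 7.27, 8.68 and 15.9 CPM in TKO, 32.1, 19.9 and 21.3 CPM in the CARM1 knockout and 16.7, 26.8 and 24.1 CPM in the NFIB mutant. The log2 fold changes were 1.21 (SE 0.33, edgeR adjusted p = 0.00808) and 1.09 (SE 0.33, edgeR adjusted p = 0.0126). It lies over the window with the GAS letters printed above. The Tap2 start peak (chr17:34201951-34203855) held 4.75, 4.45 and 12.3 CPM in TKO, 14.9, 7.58 and 8.27 CPM in the CARM1 knockout, which overlapped with TKO, and 16.7, 13.7 and 17.2 CPM in the NFIB mutant, where it was called higher (log2 1.15, SE 0.43, edgeR adjusted p = 0.0327).

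The Tapbp start peak (chr17:33915605-33917435), which also covers the start of Zbtb22, and the Psmb10 start peak (chr8:105936391-105938951) were not called. Tapbp held 29.9, 34.4 and 35.8 CPM in TKO and 24.2 to 30.2 CPM in the mutants. Psmb10 held 29.5, 26.6 and 30.5 CPM in TKO and 20.4 to 26.4 CPM in the mutants. Their estimates were below 0 with TMM scaling and above 0 with library totals and with start-site scaling, so no direction can be given. Start peaks were placed by the annotated gene start, and for Tapbp the RefSeq promoter window (chr17:33919228-33919527) lies elsewhere. That window lies in a peak inside the gene (chr17:33918379-33921359), which held 40.5 to 47.4 CPM in TKO and was not called (log2 -0.09 and 0.05). The Nlrc5 start peak (chr8:94433364-94434721) held 5.48, 5.62 and 9.13 CPM in TKO, 15.8, 9.06 and 11.2 CPM in the CARM1 knockout and 5.35, 13.4 and 11.3 CPM in the NFIB mutant. It was called higher in the CARM1 knockout (log2 0.83, SE 0.40, edgeR adjusted p = 0.0851), and overlapped with TKO in both mutants. The call was lost when TKO replicate 1 or 2, CARM1 knockout replicate 1 or 3, or NFIB mutant replicate 3 was left out (log2 0.59 to 0.89).

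Among the 9 start peaks, TKO replicate 3 was the highest of the TKO libraries at 7. The RNA-seq library with the same number was the highest TKO library for 9 of 10 genes. The study describes both assays as run on the same tumors, but the sources used here do not say that a number marks the same tumor in both.

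Over all 30 peaks, 9 were called higher and 3 lower in the CARM1 knockout, and 13 higher and 4 lower in the NFIB mutant. Of all 111116 peaks tested, 38.7% were called higher and 32.4% lower in the CARM1 knockout, and 39.3 and 34.0% in the NFIB mutant (71.1 and 73.3% in either direction), so the share called higher among the 30 peaks was near the background. In both mutants 7 of the 30 were called higher and 3 lower, against 35.0 and 30.8% of all peaks. Every CARM1 knockout library stood above every TKO library at 10 of the 30 peaks and below at 7 (38.2 and 31.5% of all peaks), and every NFIB mutant library at 14 and 6 (37.6 and 32.9%). Their median absolute log2 fold change was 0.49 in the CARM1 knockout and 0.79 in the NFIB mutant, and over all peaks it was 2.02 and 2.11. The split of higher to lower calls was 17 to 2 and 18 to 3 with library totals, 16 to 3 and 18 to 3 with start-site scaling, and 7 to 3 and 12 to 6 with the size factors of DESeq2. Of all peaks, 47.3 and 24.5% were called higher and lower in the CARM1 knockout with library totals and 47.4 and 26.3% in the NFIB mutant. With start-site scaling these shares were 43.8 and 26.7% and 45.5 and 27.3%, and with the size factors of DESeq2 36.3 and 35.9% and 37.2 and 36.7%. Between the mutants 0 of 30 peaks were called by edgeR, where 4 had an unadjusted p under 0.05.

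**Figure D5:**
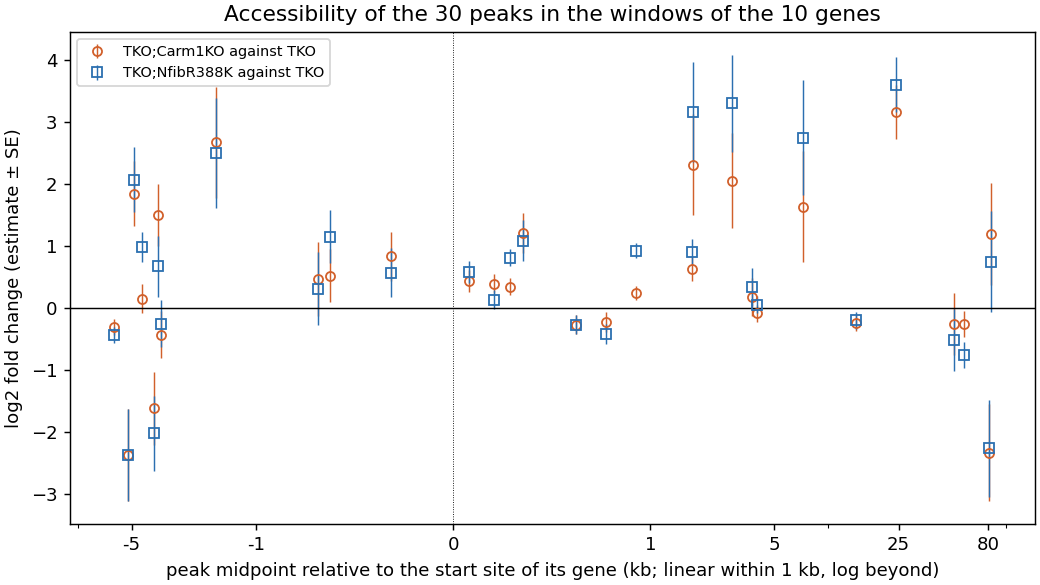
Log2 fold change against TKO (estimate ± SE, TMM scaling) of the 30 peaks, by the distance of the peak midpoint from the start of its gene in kb (linear within 1 kb and logarithmic beyond, negative upstream), for the CARM1 knockout (circles) and the NFIB mutant (squares). Peaks over a start lie between -0.43 and 1.21, and the highest point is a peak 24237 bp into Nlrc5, at 3.17 and 3.60.

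The peak that changed most lay inside Nlrc5, the transactivator of the pathway. It stands in an intron at chr8:94457910-94459277, with its midpoint 24237 bp downstream of the start. TKO libraries held 0.542, 0.464 and 0.887 CPM, CARM1 knockout libraries 6.98, 4.34 and 5.61 CPM, and those of the NFIB mutant 6.96, 6.28 and 9.66 CPM. The 6 mutant libraries stood well above the 3 TKO libraries. The log2 fold changes were 3.17 (SE 0.44, edgeR adjusted p = 2.29e-04) and 3.60 (SE 0.44, edgeR adjusted p = 1.10e-04). The same peak held a CCAAT match in its centre, as the 300 bases at chr8:94458443-94458742 (plus strand, GRCm38) show, and the other 7 patterns had no match there. CCAAT letters stood in 32.1% of all peak centres of that length.
Nlrc5 intron peak centre: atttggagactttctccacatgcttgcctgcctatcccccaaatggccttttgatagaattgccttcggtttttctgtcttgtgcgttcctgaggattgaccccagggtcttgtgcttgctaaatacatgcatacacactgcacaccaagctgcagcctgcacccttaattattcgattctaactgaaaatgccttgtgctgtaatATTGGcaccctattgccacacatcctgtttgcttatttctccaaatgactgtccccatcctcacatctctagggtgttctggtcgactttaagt

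A pair of smaller Nlrc5 peaks was called higher in both mutants as well. The one upstream of the start (chr8:94429246-94429784) held 0.338 to 0.478 CPM in TKO and 0.927 to 2.69 CPM in the mutants (log2 1.84 and 2.07). The one in an intron 2883 bp downstream (chr8:94437031-94437448) held 0.0618 to 0.465 CPM in TKO and 0.677 to 2.75 CPM in the mutants (log2 2.06 and 3.31). The second call was lost in the CARM1 knockout without TKO replicate 1 or 2 (log2 1.71 and 1.603). The 300 bases in the centre of both held AP-1 letters, which stood in 23.7% of all peak centres of that length. One further Nlrc5 peak, 81238 bp downstream (chr8:94515393-94515795), was called lower in both mutants (log2 -2.34 and -2.27). That call rests on TKO replicate 3, which held 6.63 CPM against 0.893 and 0.865 CPM in the other TKO libraries, and without it the log2 fold changes were -0.68 and -0.60 and were not called.

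At B2m the start peak was flanked by a pair of small peaks that rose. The upstream one (chr2:122145844-122146170) held 0.0638, 0.0927 and 0.338 CPM in TKO, 2.12, 0.326 and 0.653 CPM in the CARM1 knockout and 0.389, 1.23 and 1.10 CPM in the NFIB mutant (log2 2.68 and 2.50). CARM1 knockout replicate 2 overlapped with TKO, and without CARM1 knockout replicate 1 the log2 fold change there was 1.61 and not called. Its centre held ISRE letters, found in 3.68% of all peak centres. The one in an intron (chr2:122149378-122149492), only just beyond the edge of the start peak, held 0 to 0.128 CPM in TKO and 0.218 to 0.706 CPM in the mutants (log2 2.31 and 3.16). Both are near the limit of counting, since 3 counts stand for 0.0576 to 0.127 CPM on this scale.

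Further peaks called higher, named to account for every call, lay in an intron of Tap2 (chr17:34203995-34206473, log2 0.63 and 0.91 in the 2 mutants), upstream of Tapbp in the CARM1 knockout (chr17:33912119-33912572, 2.83-fold), and in a second intron peak of Tap2 (chr17:34210365-34211163, log2 2.75) and upstream of H2-D1 (chr17:35256997-35259752, log2 0.98) in the NFIB mutant. An Nlrc5 intron peak (chr8:94491817-94493700) was called lower in the NFIB mutant (log2 -0.76).

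The other falls were upstream of Psmb10. The peak at chr8:105943283-105944092 covers the start of Lcat, a neighbouring gene, and held 0.765, 5.69 and 10.4 CPM in TKO and 0.770 to 1.37 CPM in the mutants (log2 -2.38 and -2.38). The peak at chr8:105941928-105942483 held 2.30, 5.59 and 1.48 CPM in TKO and 0.412 to 1.31 CPM in the mutants (log2 -1.62 and -2.03). At the first of these TKO replicate 1 overlapped with the mutants, so the groups were not separate there, while at the second they were. Without TKO replicate 2 the second peak had a log2 fold change of -0.90 in the CARM1 knockout and was not called.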

How the data were processed

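Per the labels, RNA-seq and ATAC-seq were run on 9 libraries each. The authors deposited raw counts: for RNA, trimmed reads were aligned with hisat2 to mm10 and counted per gene with htseq-count, and for ATAC, reads were aligned with Bowtie2, duplicates were removed with Picard, and counts per peak came from featureCounts 1.6.3, with MACS2 as the peak caller in the methods and Genrich in the submitters' processing notes. Groups came from the labels, and columns named C, KO and N were matched to them by these names. The htseq-count summary rows were left out.

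Counts were fitted with edgeR 4.0.16 in R 4.3.3 (TMM scaling, filterByExpr, robust quasi-likelihood F-test, 1 model of the 9 libraries per assay), with Benjamini-Hochberg adjustment over 15514 genes or 111116 peaks. SE are the absolute log2 fold change divided by the square root of the F statistic, so they restate that test. DESeq2 1.42.0 was an alternative. CPM are counts over TMM-scaled library totals, times 1000000. On this scale 3 counts, the floor, were 0.131 to 0.203 CPM for RNA and 0.0576 to 0.127 CPM for ATAC (fold bounds use the highest TKO floor, 0.144 CPM for RNA), and such floors cover counting error only. With 3 animals per genotype, the tests set each difference against a spread between animals. That spread is estimated over all 9 libraries of an assay and drawn toward that of other genes or peaks. On data simulated for the comparison of the CARM1 knockout with TKO, changes of 1, 2, 3 and 4 on the log2 scale were called in 4, 40.4, 63.3 and 56.3% of cases for 15094 genes and in 4, 32, 70 and 96% for 19910 peaks. The simulation changed far fewer features than were called in the real data, which makes the adjusted p stricter. Its shares may therefore be too low for this comparison.

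The members and gene lists were chosen with earlier results of these data known. From each further pathway list the text names up to 2 genes with the largest mean rise and fall among those called in both mutants, and for peaks it names the one nearest each start and the 5 largest rises and falls called in both. Others are said to be chosen after their values were seen, or serve as the matched proteasome subunits, checkpoint and marker genes. Figures were drawn with matplotlib 3.10.9. Tap2 and Nlrc5 had no promoter entry.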

Additional observations from a re-analysis of the deposited data

How the results depend on the processing

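In the CARM1 knockout 10 of 10 genes were called, 8 at an adjusted p below 0.05 with a log2 change of 1 or more, and 6 to 10 when 1 library was left out. Without the 3 libraries with over 10 CPM of Ptprc, an alternative chosen after seeing the data that leaves 1 CARM1 knockout library, the number was 0. In the NFIB mutant 9 or 10 genes were called under every alternative run, and between the mutants 0. Between same-numbered libraries of different genotypes, correlations of their deviations from the genotype means ran from -0.227 to 0.101 for RNA and from -0.116 to 0.0951 for ATAC. RNA was not compared with ATAC in this way. Such correlations cannot decide whether these libraries share a litter or a batch. With a replicate block 10, 10 and 0 genes were called, and 13, 17 and 0 peaks. Of the 30 peaks, 12 were called in the CARM1 knockout (19 with library totals, 19 with start-site scaling, 3 when only peaks within 1000 bp of a start counted, and 9 to 15 with 1 library left out) and 17 in the NFIB mutant (11 at the stricter thresholds, 6 within 1000 bp, and 15 to 18 with 1 library left out). Between the mutants DESeq2 called 1 peak.

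Some estimates near 0 changed sign. The log2 difference between the mutants for Psmb10 was -0.02, and became 0.059 with library totals, 0.012 with at least 10 counts in every library, 0.024 with the replicate block and 0.0091 in a fit of only the groups compared. With 1 library left out it ran from -0.32 to 0.45 for Psmb10, from -1.17 to 0.092 for Tap1 and from -0.71 to 0.38 for Nlrc5. The Tapbp start peak moved to 0.30 with library totals and 0.10 with start-site scaling in the CARM1 knockout, and to 0.29 and 0.17 in the NFIB mutant. The Psmb10 start peak moved to 0.34 and 0.14, and to 0.13 and 0.020. The B2m start peak in the NFIB mutant moved to -0.016 with the size factors of DESeq2 in edgeR and to -0.010 with DESeq2. With library totals and with start-site scaling it moved the other way, to 0.58 to 0.70, and was called higher. The cause of these shifts was not tested.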
